A study of Homo sapiens with 8 samples.

Results

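The RNAs described here are 10 genes known as long noncoding RNA (lncRNA) genes that are abundant in human cells or are often discussed in cancer, namely MALAT1, NEAT1, GAS5, H19, MEG3, HOTAIR, PVT1, TUG1, SNHG1 and SNHG5. They were chosen by symbol, and all 10 were found among the 23228 genes in the count lists. Counts came from BT-549 cells, an established triple negative breast cancer (TNBC) line of mesenchymal type, in which RNA-seq was performed 24 h after treatment. One group received vehicle (DMSO), one received 100 nM EC359, an inhibitor of the leukemia inhibitory factor receptor (LIFR), one received 10 µM vorinostat, an inhibitor of histone deacetylases (HDACi), and one received EC359 together with vorinostat at the same doses (combination). Each of these 4 groups had 2 libraries and all 8 libraries were from this single line. The labels do not say whether the 2 libraries of a group came from separate cultures, so the p-values measure only the spread between these libraries, which may be technical.

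Long noncoding RNAs are transcripts that are not known to work through a protein product. MALAT1 and NEAT1 stay in the nucleus, where MALAT1 collects in the speckles that store splicing factors and the long form of NEAT1 is the scaffold of paraspeckles. GAS5, SNHG1 and SNHG5 are host genes, whose introns are processed into box C/D small nucleolar RNAs (snoRNAs) that guide methylation of ribosomal RNA, while their spliced exons are known substrates of nonsense-mediated decay. H19 and MEG3 are imprinted genes that are high in the embryo and placenta, HOTAIR is transcribed from the HOXC cluster, PVT1 lies beside MYC, and TUG1 is a widely expressed RNA found in both nucleus and cytoplasm.

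The libraries held 19069450 to 24759041 reads counted on genes. VIM, a mesenchymal filament gene, had 44019 to 184896 counts, whereas the receptor genes ESR1 and PGR had at most 20 counts and 1 count in any library. ERBB2 had 235 to 2184 counts. Defining genes of leukocytes (PTPRC, at most 15 counts) and endothelium (PECAM1, at most 4) were near 0, and ALB of liver had 0 to 71 counts. Epithelial genes were low but not constant. CDH1 had 1 to 43 counts and KRT5 had 3 to 33, while EPCAM had 4 and 3 counts in vehicle, 11 and 16 in EC359, 83 and 50 in vorinostat and 9 and 70 in combination and rose with vorinostat (log2 4.22 ± 0.99, adjusted p = 0.0045 by edgeR). Of the 9 marker genes tested, 2 rose and 1 fell with vorinostat and 3 rose and 2 fell with the combination. The part of these shifts in the results below was not tested. The share of uniquely aligned reads that fell on no gene was 13.6% and 14.2% in the combination libraries and 11.03% to 12.62% in the other libraries. Values below are CPM, read counts scaled to a common library total with TMM factors, and in bulk RNA fewer cells with a transcript and less of it per cell cannot be told apart.

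MALAT1 and NEAT1 are neighbors on chromosome 11, and neither long transcript ends in the usual poly(A) tail that is added after transcription. Their 3′ ends are instead known to fold into a triple helix made of U-rich stretches and an A-rich stretch that are encoded in the genome. The DNA of these ends is shown because it is the sequence feature that these RNAs share and that sets them apart from the other members. Capitals mark the string TTTTGCTTTT and the string AAAAGCAAAA, searched for on the transcript strand within 60 bases of each other, and sequences are from GRCh37 (hg19), plus strand, at chr11:65273492-65273587 for MALAT1 and chr11:65212911-65213011 for NEAT1.
MALAT1: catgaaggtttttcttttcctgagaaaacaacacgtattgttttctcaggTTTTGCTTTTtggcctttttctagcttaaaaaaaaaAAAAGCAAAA
NEAT1: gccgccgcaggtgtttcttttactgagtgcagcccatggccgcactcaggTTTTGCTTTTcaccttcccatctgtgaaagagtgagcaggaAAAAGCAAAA
The strings were 26 bases apart in MALAT1 and 31 bases apart in NEAT1. Such a pair was present in 7 of 62296 annotated genes (0.0112%), and among the 10 members it was found in MALAT1 and NEAT1 and in no other. The strings were set beforehand as letters of the known ends of MALAT1 and NEAT1, so their presence in these RNAs was fixed in advance. The match describes letters in the genome and is not a measurement of RNA structure.

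The members covered a wide range of levels. Ranked by mean CPM over all 8 libraries, treated ones included, among all listed genes, NEAT1 was at place 194, MALAT1 at 633, TUG1 at 807, SNHG1 at 2488, SNHG5 at 5325, GAS5 at 6228, PVT1 at 9352, HOTAIR at 12636, MEG3 at 14741 and H19 at 14972. In vehicle alone TUG1, at 234 ± 23.0 CPM (SD, n = 2), was above MALAT1, at 136 ± 53.1 CPM, and level with NEAT1, at 236 ± 46.8 CPM. Dividing by the length of the canonical GENCODE transcript changed this order, since the nuclear RNAs are the longest. In vehicle, SNHG1 had 59.3 ± 3.70 CPM per kb (SD, n = 2), GAS5 38.2 ± 1.79, TUG1 31.3 ± 3.08, SNHG5 27.7 ± 9.28, MALAT1 13.0 ± 5.09, NEAT1 10.4 ± 2.06, PVT1 4.17 ± 0.0582 and HOTAIR 0.591 ± 0.0916. TUG1 and SNHG5, and likewise MALAT1 and NEAT1, lay within each other's spread. The lengths used were 22743 bases for NEAT1 and 10434 bases for MALAT1, and the level per kb of NEAT1 would be higher if its short form made up most of the reads, which was not tested. Exons merged over all GENCODE transcripts cover 3976 bases in SNHG1, 4932 in GAS5 and 12604 in SNHG5. Their canonical lengths are 1162, 768 and 1316 bases, whereas both lengths are 10434 bases for MALAT1. That MALAT1 length runs to position 65275544, past the 3′ end shown above, which stops at 65273587. The level per kb of MALAT1 would be higher if few reads came from beyond that end, which was not tested. On merged exons the host genes would have lower levels per kb, so this order depends on the length chosen.

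The low members were H19 and MEG3. H19 had 4 and 2 counts in vehicle, 1 and 0 in EC359, 2 and 2 in vorinostat and 4 and 0 in combination. MEG3 had 1 count in each vehicle library, 0 in all EC359 and vorinostat libraries, and 0 and 15 in combination. The combination library with 15 MEG3 counts also had 18 counts of IGF2, the imprinted growth factor gene beside H19, which had 0 to 5 counts in the other libraries. MRPL23, on the other side of H19, encodes a mitochondrial ribosomal protein and fell with vorinostat and the combination, by 1.21 and 1.86 on the log2 scale. DLK1, the imprinted neighbor of MEG3, had 0 to 6 counts, and the microRNA gene MIR675 within H19 had 0 counts in every library. Neither H19 nor MEG3 passed the filter on low counts, so 8 of the 10 members were tested, and no fold is given for these genes. A count of 0 allows up to 3 counts in a library, which covers counting error only.

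**Figure D1:**
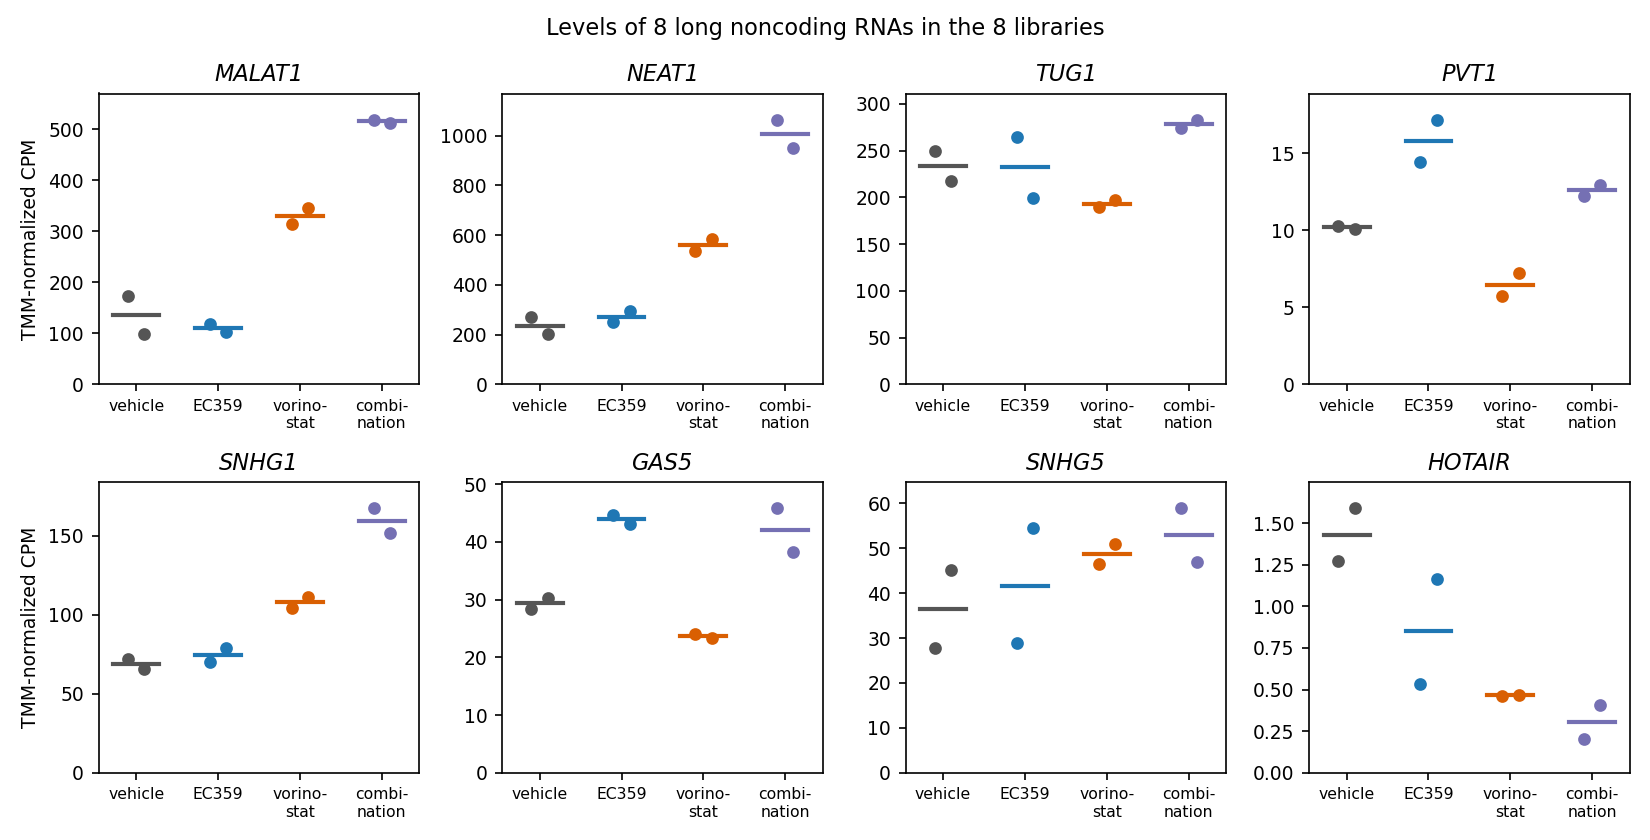
Each panel plots the TMM-normalized CPM of 1 lncRNA (vertical axis, from 0) in the 4 treatment groups, with a point for each of the 2 libraries and a bar for their mean. MALAT1, NEAT1 and SNHG1 were highest in both combination libraries and next highest in both vorinostat libraries, whereas GAS5 and PVT1 were lowest in both vorinostat libraries.

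MALAT1 and NEAT1, the nuclear architectural RNAs, rose with vorinostat and stood higher still with the combination. MALAT1 (chr11:65265111-65275544, plus strand, 1 exon) was at 173 and 98.0 CPM in vehicle, 119 and 102 CPM in EC359, 314 and 346 CPM in vorinostat, and 518 and 512 CPM in combination. Its vehicle libraries differed from each other more than those of any other group, and the EC359 values lay between them. Even so, every vorinostat and combination library was above every vehicle and EC359 library. Such separation is frequent with 2 libraries per group, since both combination libraries were above both vorinostat libraries for 36.2% of all genes. Here and below, the share of all genes with the same order over the 4 groups was not computed. Against vehicle, MALAT1 rose 2.43-fold with vorinostat (log2 fold change 1.28 ± 0.22 SE, adjusted p = 0.00072 by edgeR's quasi-likelihood test) and 3.80-fold with the combination (1.93 ± 0.22, adjusted p = 5.3e-05 by the same edgeR test). Without vehicle replicate 2, the vorinostat change was 0.92 on the log2 scale and no longer over 1, although it still passed at an adjusted p under 0.01.

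NEAT1 (chr11:65190245-65213011, plus strand) was at 269 and 203 CPM in vehicle, 250.0 and 294 CPM in EC359, 538 and 585 CPM in vorinostat, and 1064 and 953 CPM in combination. The vorinostat pair lay above all vehicle and EC359 libraries, and the combination pair lay above all others. NEAT1 rose 2.38-fold with vorinostat (log2 1.25 ± 0.14, adjusted p = 6.0e-05 by edgeR) and 4.28-fold with the combination (2.10 ± 0.15, adjusted p = 2.2e-06 by edgeR). The 95% intervals with the combination were 1.77 to 2.43 for NEAT1 and 1.42 to 2.43 for MALAT1. A difference between these increases was not tested, so they are not ranked. Per kb of canonical transcript, MALAT1 and NEAT1 reached 49.4 ± 0.416 and 44.3 ± 3.46 CPM per kb in combination, below SNHG1 at 137 ± 9.32. That order also depends on the length chosen, since the merged exons of SNHG1 are longer than its canonical transcript. The higher share of reads on no gene in the combination libraries moved with these changes, and its part in them was not tested. How fully the library preparation captured transcripts without a usual poly(A) tail was not tested either.

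Genes next to this pair of RNAs did not move as 1 block. FRMD8, upstream of NEAT1, rose with vorinostat (log2 1.32 ± 0.18, adjusted p = 0.00017 by edgeR) and with the combination (1.11 ± 0.18, adjusted p = 0.00045 by edgeR). LTBP3, which encodes a binding protein of latent TGF-beta, fell in both, by 1.17 and 1.27 on the log2 scale. FRMD8 was at 46.5 and 57.6 CPM in vehicle, 132 and 128 CPM in vorinostat and 116 and 109 CPM in combination.

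Of the 8 tested members, 2 were called with vorinostat against vehicle, at an adjusted p under 0.01 and a log2 fold change over 1 in size, both higher. Of all 13694 tested genes 30.1% were called and 16.8% were called as higher. At an adjusted p under 0.01 without the fold threshold, 3 rose (MALAT1, NEAT1 and SNHG1) and 1 fell (PVT1), against 52.1% of all genes, 26.2% that rose and 25.9% that fell. With the combination against vehicle, 4 of 8 were called, namely NEAT1, MALAT1 and SNHG1 higher and HOTAIR lower. Over all genes 34.8% were called, 19.5% higher and 15.3% lower. Without the fold threshold 4 members rose and 1 fell, together 5 of 8, against 56.4% of all genes, 29.7% that rose and 26.7% that fell. With the combination against EC359, 3 of 8 were called (MALAT1, NEAT1 and SNHG1, all higher), against 33.7% of all genes and 19.8% that were called as higher. The median log2 fold change of the 8 members was 0.07 with vorinostat and 0.53 with the combination, beside 0.03 and 0.07 over all tested genes. The comparisons against vehicle share the vehicle libraries.

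**Figure D2:**
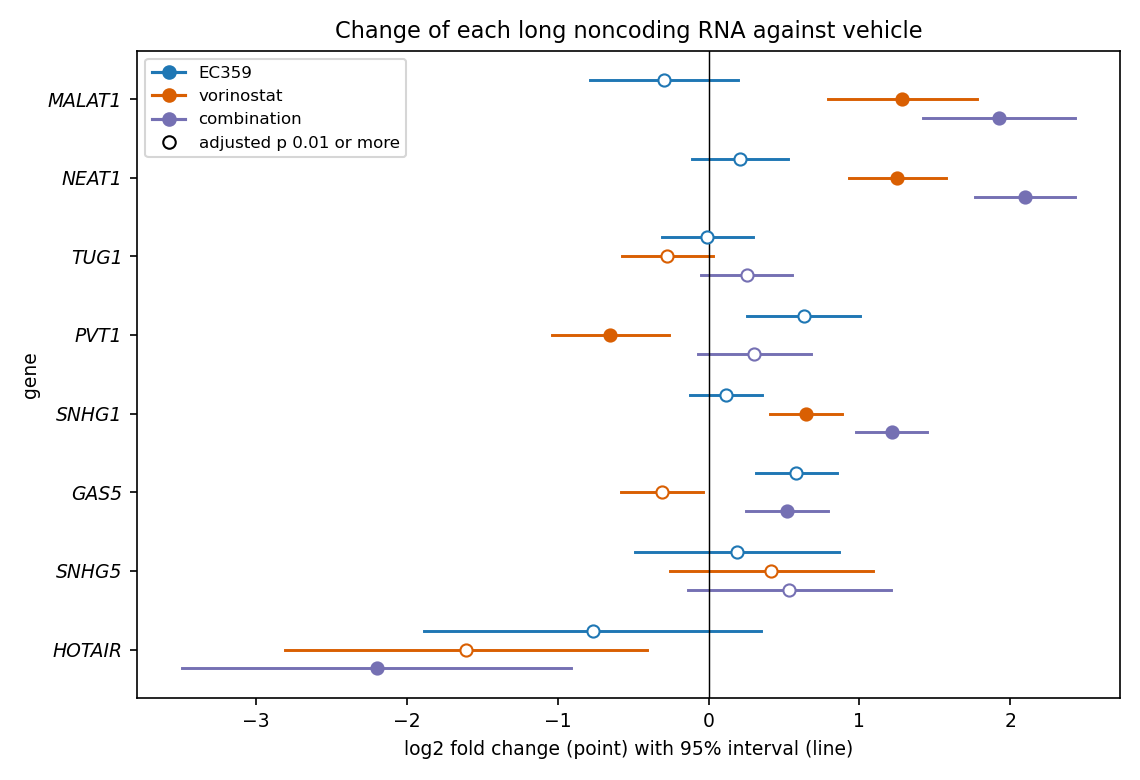
The log2 fold change of each tested lncRNA against vehicle (horizontal axis) is shown as a point with its 95% interval as a line, for EC359, vorinostat and the combination. Filled points had an adjusted p under 0.01 (edgeR), and none of the EC359 points is filled.

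Paraspeckles need NEAT1 and a set of RNA-binding proteins. Against vehicle, most genes of these proteins were lower with vorinostat and with the combination, where NEAT1 was higher. Of 8 such genes, 7 fell with vorinostat and 6 fell with the combination, and none rose in either. Their median log2 fold change was -0.92 with vorinostat and -0.76 with the combination, where 25.9% and 26.7% of all tested genes fell. The pattern did not extend to the combination against vorinostat alone, where NEAT1 rose further. There 1 of the 8 genes rose and 0 fell, with a median of 0.16, where 8.45% of all tested genes rose. The largest decreases with vorinostat were those of PSPC1 and HNRNPH3. PSPC1, paraspeckle component 1, was at 81.5 and 81.3 CPM in vehicle and 35.9 and 38.0 CPM in vorinostat (log2 -1.14 ± 0.14, adjusted p = 8.1e-05 by edgeR). With the combination it was at 57.4 and 62.2 CPM, and this difference from vehicle did not pass (log2 -0.44, adjusted p = 0.015 by edgeR), while the rise over vorinostat alone did (0.69 ± 0.14, adjusted p = 0.0061 by edgeR). HNRNPH3 fell by 1.04 on the log2 scale with vorinostat.

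The core partners of PSPC1 are NONO and SFPQ, both DBHS family proteins that bind NEAT1 along its length. SFPQ was at 512 and 447 CPM in vehicle, 246 and 244 CPM in vorinostat and 321 and 391 CPM in combination, and fell with vorinostat (log2 -0.97 ± 0.17, adjusted p = 0.00084 by edgeR). NONO was the 1 gene of the list that did not pass with vorinostat (log2 -0.48, adjusted p = 0.017 by edgeR), but it fell with the combination (-0.72 ± 0.15, adjusted p = 0.0020 by edgeR). HNRNPK, which is required for paraspeckles to form, fell in both and was lowest in the combination at 227 and 208 CPM after 441 and 477 CPM in vehicle (log2 -1.08 ± 0.12, adjusted p = 3.7e-05 by edgeR). The count of genes that fell with the combination was 3 without vehicle replicate 1, without vehicle replicate 2 or without combination replicate 1. No gene of this list passed with EC359 alone. These proteins also have many uses outside paraspeckles, and paraspeckles themselves were not measured.

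**Figure D3:**
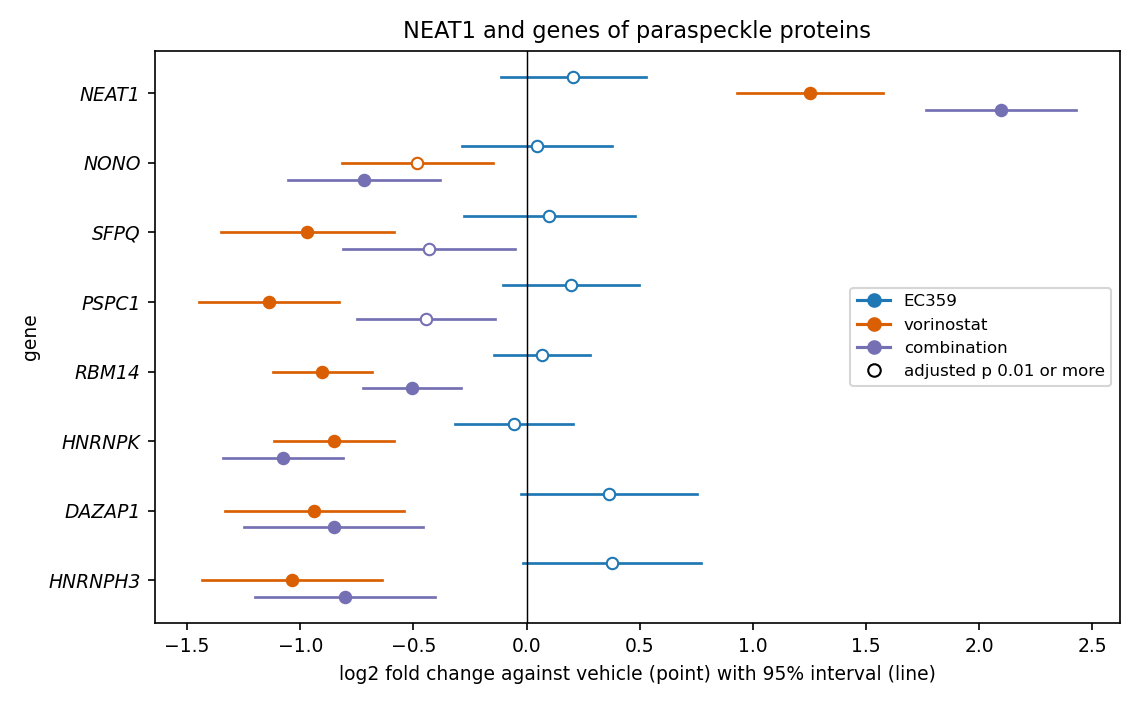
The log2 fold change against vehicle (horizontal axis, point with 95% interval) is plotted for NEAT1 and 7 genes of paraspeckle proteins under the 3 treatments, with filled points for an adjusted p under 0.01 (edgeR). NEAT1 lay to the right of 0 with vorinostat and the combination, while the 7 protein genes lay to the left of 0 in these treatments.

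The snoRNA host genes SNHG1, GAS5 and SNHG5 each had their own order of levels. SNHG1 (chr11:62619450-62623425, minus strand) was at 71.9 and 65.8 CPM in vehicle, 70.3 and 78.8 CPM in EC359, 104 and 112 CPM in vorinostat, and 167 and 152 CPM in combination. Vehicle and EC359 overlapped, and the vorinostat and combination pairs each stood clear above them. It rose with vorinostat (log2 0.65 ± 0.10, adjusted p = 0.00052 by edgeR), a pass that was lost without vehicle replicate 2 or without vorinostat replicate 2 (adjusted p up to 0.0103), and 2.32-fold with the combination (1.21 ± 0.11, adjusted p = 8.7e-06 by edgeR). SLC3A2, a neighbor of SNHG1 that lies head to head with it and encodes an amino acid transporter chain, rose with the combination (log2 1.01 ± 0.23, adjusted p = 0.0035 by edgeR), whereas with vorinostat it was at 0.49 (adjusted p = 0.083 by edgeR).

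GAS5 (chr1:173827697-173838020, minus strand), named for its accumulation in growth-arrested cells, had another order. It was at 28.4 and 30.3 CPM in vehicle, 44.7 and 43.1 CPM in EC359, 24.0 and 23.4 CPM in vorinostat, and 45.8 and 38.3 CPM in combination. Both groups given EC359 were above vehicle, and both vorinostat libraries were below it. With vorinostat the log2 fold change was -0.31 (adjusted p = 0.048 by edgeR), which did not pass. With the combination GAS5 rose over vehicle (0.52 ± 0.12, adjusted p = 0.0038 by edgeR), with an adjusted p of up to 0.052 when 1 library was left out, and it did not differ detectably from EC359 alone (log2 -0.06, 95% interval -0.33 to 0.20, adjusted p = 0.66 by edgeR).

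SNHG5 (chr6:86360209-86388650, minus strand) differed as much between the libraries of the vehicle and EC359 groups as between the group means. It was at 27.9 and 45.1 CPM in vehicle, 28.8 and 54.6 CPM in EC359, 46.4 and 50.9 CPM in vorinostat, and 58.9 and 47.0 CPM in combination. Its interval for the combination against vehicle ran from -0.14 to 1.21 on the log2 scale, so a change of up to this size cannot be told apart from none. SYNCRIP, an RNA-binding protein gene next to SNHG5, fell with vorinostat (log2 -1.16 ± 0.13, adjusted p = 6.2e-05 by edgeR) and with the combination (-0.73 ± 0.13, adjusted p = 0.00096 by edgeR).

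The count lists also had rows for the snoRNAs in the introns of these hosts, and those of SNHG1 rose, with larger fold changes than its exons, a difference that was not itself tested. All 8 snoRNA rows of SNHG1 (SNORD22 and SNORD25 to SNORD31) passed as higher with vorinostat, with log2 fold changes from 1.70 to 3.0, and all 8 passed with the combination, from 1.64 to 2.88. Of 43 other snoRNA rows that were tested, 1 passed as higher with vorinostat (2.33%) and 2 with the combination (4.65%). SNORD30, for example, had 13 and 7 counts in vehicle, 26 and 11 in EC359, 73 and 91 in vorinostat and 94 and 43 in combination (log2 3.0 ± 0.51 with vorinostat, adjusted p = 0.00073 by edgeR). These are low counts, and the number of SNHG1 rows that passed with vorinostat was 5 without vehicle replicate 1, 1 without vehicle replicate 2 (SNORD31), 4 without vorinostat replicate 1 and 3 without vorinostat replicate 2. With the combination it was 5, 1 and 3 without vehicle replicate 1, vehicle replicate 2 and combination replicate 1.

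Summed over the 8 rows, SNHG1 snoRNA counts were 154 and 103 in vehicle, 165 and 159 in EC359, 530 and 720 in vorinostat, and 673 and 460 in combination. In CPM the sum was 4.79 times the vehicle mean with vorinostat and 4.80 times with the combination, beside 1.57 and 2.32 times for the host exons. For every 100 counts on SNHG1 exons there were 10.1 and 7.31 snoRNA counts in vehicle, 26.2 and 27.4 in vorinostat and 20.6 and 15.5 in combination. The snoRNA sum was therefore about as high in vorinostat as in combination, whereas the exons were higher in combination. None of the 8 rows passed between combination and vorinostat or with EC359 alone. Reads of a mature snoRNA and of an intron that had not been spliced cannot be told apart in these rows.

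GAS5 holds 10 snoRNA rows, of which 6 were tested and none passed in any comparison. Their summed counts were 136 and 128 in vehicle, 185 and 168 in EC359, 153 and 167 in vorinostat and 174 and 148 in combination, a range in which the groups lay close together. For every 100 counts on GAS5 exons there were 22.6 and 19.7 snoRNA counts in vehicle, 17.1 and 19.8 in EC359, 32.8 and 30.3 in vorinostat and 19.4 and 19.7 in combination. This ratio was thus highest in both vorinostat libraries, as for SNHG1, beside the low exon level of GAS5 in these libraries. SNHG5 holds SNORD50A and SNORD50B, and its ratio was instead highest in combination, at 5.13 and 5.54. It was 2.20 and 0.932 in vehicle, 1.86 and 1.67 in EC359 and 2.21 and 3.09 in vorinostat, all from few snoRNA counts. SNORD50B had 12 and 8 counts in vehicle, 16 and 23 in vorinostat and 48 and 46 in combination, and rose with the combination (log2 2.34 ± 0.46, adjusted p = 0.0016 by edgeR). SNORD50A had 1 to 14 counts and did not pass.

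**Figure D4:**
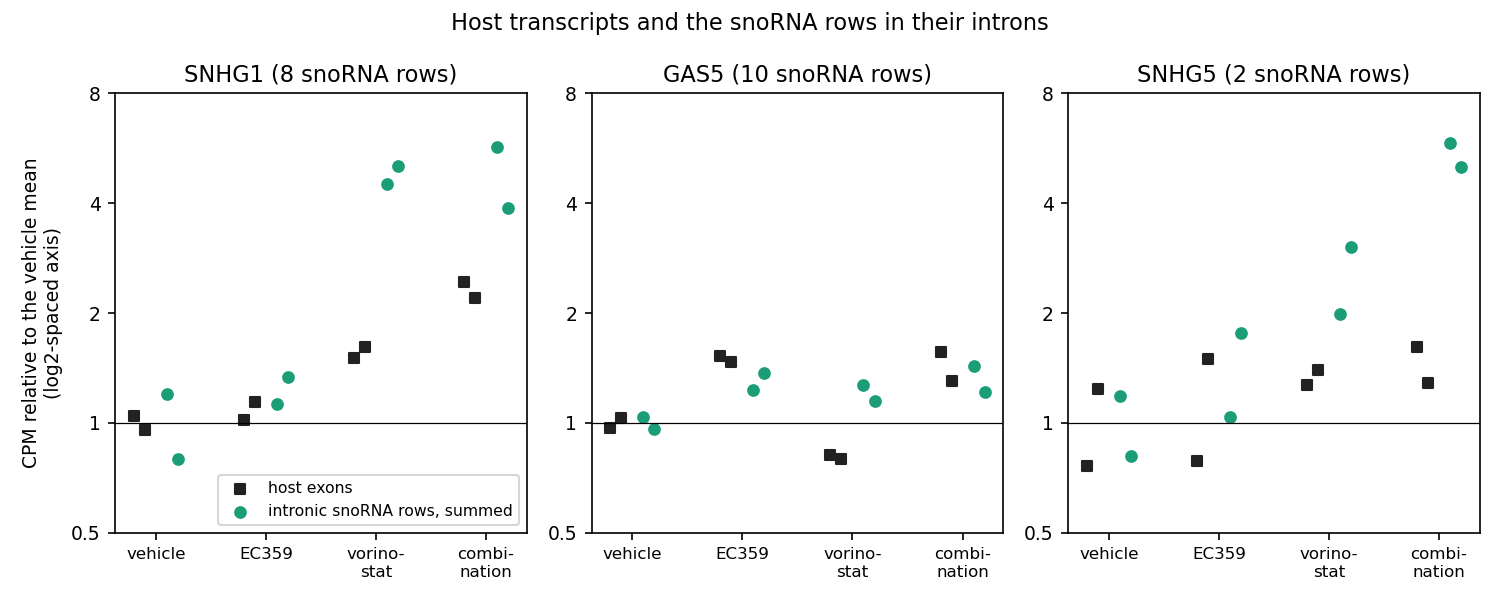
For SNHG1, GAS5 and SNHG5, the CPM of the host exons (squares) and the summed CPM of the snoRNA rows in its introns (circles) are plotted in each library relative to the vehicle mean, on an axis spaced by log2. The SNHG1 snoRNA sum lay well above the host in all vorinostat and combination libraries, whereas host and snoRNA points of GAS5 stayed within 2-fold of vehicle.

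Proteins that act on these RNAs were also measured at the RNA level. Of the 4 core protein genes of box C/D snoRNPs, 2 fell with vorinostat, NOP56 (log2 -1.12) and SNU13, listed as NHP2L1 (-0.70), and the same 2 genes fell with the combination by 0.54 and 0.59. Among all tested genes, 25.9% fell with vorinostat and 26.7% with the combination. Of 10 nonsense-mediated decay genes, 4 fell with vorinostat, namely SMG9 (-2.02), SMG5 (-1.07), UPF2 (-1.07) and UPF3B (-1.01), and none rose, where 25.9% of all tested genes fell and 26.2% rose. With the combination, SMG9 and SMG5 fell by 1.19 and 1.04, whereas SMG1, the kinase of the pathway, rose by 0.88. UPF1, its central helicase, had log2 values of -0.24 and -0.25 and passed in neither.

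Other host genes of snoRNAs showed no common direction. Of 14 such genes tested, 1 rose and 3 fell with vorinostat, and 2 rose and 3 fell with the combination, in each case a smaller share than that of all genes given above. SNHG9 rose with vorinostat (log2 1.75), while SNHG20, listed as NCRNA00338, fell by 2.07. With the combination, SNHG4 fell by 1.97 and EPB41L4A-AS1, listed as NCRNA00219, rose by 1.07. DANCR, listed as KIAA0114, fell in both (-0.90 and -1.30). ZFAS1, listed as ZNFX1-AS1, had an order like that of GAS5, at 95.7 and 96.1 CPM in vehicle, 156 and 139 CPM in EC359, 93.8 and 91.1 CPM in vorinostat and 138 and 153 CPM in combination. It rose with EC359 alone (log2 0.62 ± 0.10, adjusted p = 0.0029 by edgeR), and it was the only 1 of the 14 to do so.

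PVT1, on chromosome 8 next to MYC, was at 10.3 and 10.1 CPM in vehicle, 14.4 and 17.1 CPM in EC359, 5.71 and 7.23 CPM in vorinostat, and 12.2 and 12.9 CPM in combination. No group overlapped another, with vorinostat lowest and EC359 highest, and the share of all genes separated in this way was not computed. PVT1 fell with vorinostat (log2 -0.65 ± 0.17, adjusted p = 0.0085 by edgeR). This pass was lost in 8 of 17 alternatives, over which the log2 value ran from -0.85 to -0.50. With the combination its difference from vehicle did not pass (0.30, 95% interval -0.07 to 0.68, adjusted p = 0.13 by edgeR). MYC, by contrast, rose in each of the treatments, its log2 increase being 0.95 in the EC359 group, 0.76 after vorinostat and 1.97 under both agents. MYC was at 207 and 184 CPM in vehicle and 731 and 804 CPM in combination, and with vorinostat alone it rose where PVT1 fell.

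TUG1 (chr22:31365231-31375381, plus strand), which GENCODE annotates as protein coding although it is known as a lncRNA, was at 250 and 217 CPM in vehicle, 265 and 199 CPM in EC359, 190 and 197 CPM in vorinostat, and 274 and 283 CPM in combination. Its EC359 libraries spanned both vehicle libraries. TUG1 passed in no comparison, with log2 values of -0.27 (95% interval -0.58 to 0.03) with vorinostat and 0.25 (-0.05 to 0.56) with the combination against vehicle. MORC2, its neighbor on the other strand, rose with vorinostat by 0.43 and with the combination by 0.63 on the log2 scale.

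HOTAIR (chr12:54356092-54368740, minus strand) was the 1 tested member that fell with the combination. It had 27 and 34 counts in vehicle, 13 and 23 in EC359, 9 and 11 in vorinostat and 4 and 8 in combination, or 1.27 and 1.59 CPM in vehicle and 0.205 and 0.409 CPM in combination. All treated libraries were below both vehicle libraries. The decrease with the combination was 4.60-fold (log2 -2.20, 95% interval -3.49 to -0.91, adjusted p = 0.0072 by edgeR), and that with vorinostat did not pass (-1.61, adjusted p = 0.024 by edgeR). At these counts the combination call was lost when any 1 of the vehicle, vorinostat or combination libraries was left out, with an adjusted p of up to 0.052. HOXC11, which overlaps the HOTAIR locus on the other strand, had 4 to 24 counts and passed in no comparison.

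HOTAIR is known for its binding to the Polycomb complex PRC2 and to the LSD1-CoREST complex. Of 7 genes of these complexes, 4 fell with vorinostat and 1 rose, where 25.9% of all genes fell and 26.2% rose. RBBP4, a histone-binding subunit, fell by 1.21 and REST, the DNA-binding partner of CoREST, fell by 0.68, while EZH2, the methyltransferase of PRC2, fell by 0.40 and RCOR1 rose by 0.64 on the log2 scale. With the combination, 2 fell and 1 rose, where 26.7% of all genes fell and 29.7% rose.

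With EC359 alone, no member showed a change that met the thresholds in the main test. None of the 8 was called and none passed at an adjusted p under 0.01, where 3.67% of all genes were called and 7.82% passed. DESeq2 also called none. At an unadjusted p under 0.05 in edgeR there were 2, GAS5 and PVT1, against 30.9% of all genes. GAS5 was nearest to the threshold (log2 0.58 ± 0.12, 95% interval 0.31 to 0.85, adjusted p = 0.011 by edgeR), and DESeq2 gave it an adjusted p of 0.0010. GAS5 also passed with RLE scaling and with no filter on low counts, so its side of the threshold depended on the processing. Its log2 value was at most 0.64 in the alternatives, under the fold threshold. PVT1 was at 0.63 ± 0.16 (adjusted p = 0.031 by edgeR). For the others the intervals were -0.79 to 0.19 for MALAT1, -0.11 to 0.53 for NEAT1, -0.31 to 0.29 for TUG1, -0.12 to 0.35 for SNHG1, -0.49 to 0.86 for SNHG5 and -1.88 to 0.34 for HOTAIR. A miss of the threshold does not show that these RNAs were unaffected.

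Comparing the combination with vorinostat asks what the LIFR inhibitor changed in cells given the HDACi. None of the 8 members was called, against 4.25% of all genes, but 4 rose at an adjusted p under 0.01 and none fell, where 13.7% of all genes passed and 8.45% rose. DESeq2 also called none of the 8 members. PVT1 rose by 0.95 ± 0.17 on the log2 scale (adjusted p = 0.0040 by edgeR), NEAT1 by 0.84 ± 0.14 (adjusted p = 0.0028 by edgeR), GAS5 by 0.83 ± 0.12 (adjusted p = 0.0015 by edgeR) and SNHG1 by 0.57 ± 0.10 (adjusted p = 0.0043 by edgeR). MALAT1, at 0.64 ± 0.21 (adjusted p = 0.052 by edgeR), and TUG1, at 0.53 ± 0.13 (adjusted p = 0.018 by edgeR), did not pass, although MALAT1 passed in 5 and TUG1 in 6 of 17 alternatives, TUG1 also with DESeq2. In all 6 of these RNAs both combination libraries were above both vorinostat libraries, which was also so for 36.2% of all genes. Leaving out 1 library ended each of the 4 passes at least once, with an adjusted p of up to 0.048 for NEAT1, 0.031 for GAS5, 0.068 for PVT1 and 0.084 for SNHG1.

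Whether the effect of EC359 differed with and without vorinostat was tested as an interaction. No member passed, where 2.1% of all genes did, and 4 had an unadjusted p under 0.05, where 22.4% of all genes did. These were MALAT1 (log2 0.94 ± 0.31, adjusted p = 0.11 by edgeR), NEAT1 (0.64 ± 0.20, adjusted p = 0.098 by edgeR), TUG1 (0.54 ± 0.19, adjusted p = 0.14 by edgeR) and SNHG1 (0.45 ± 0.15, adjusted p = 0.11 by edgeR). In the same order, their 95% intervals were 0.25 to 1.63, 0.19 to 1.09, 0.11 to 0.96 and 0.12 to 0.78. These intervals lie above 0 but are not adjusted for the number of genes tested. DESeq2 also passed no member. For GAS5 and PVT1 the interaction values were 0.25 (95% interval -0.14 to 0.63) and 0.32 (-0.21 to 0.86), so the rise with EC359 in vorinostat-treated cells was not shown to differ from that in vehicle-treated cells.

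**Figure D5:**
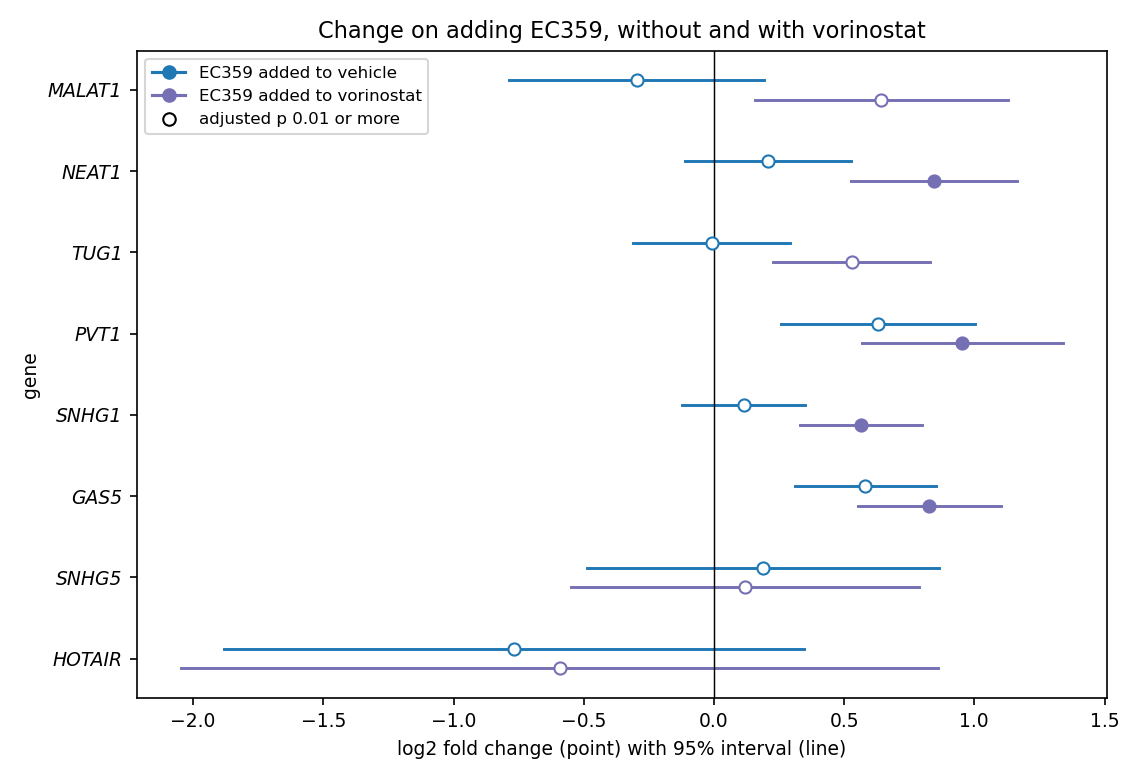
The log2 fold change on adding EC359 (horizontal axis, point with 95% interval) is shown for each tested lncRNA in vehicle-treated and in vorinostat-treated cells, with filled points for an adjusted p under 0.01 (edgeR). PVT1, NEAT1, GAS5 and SNHG1 had filled points on adding EC359 to vorinostat. Overlap of paired intervals is not a test of their difference, which the interaction tests.

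Other lncRNAs showed both directions. Of 11 tested from a list of 20 further cancer-linked or abundant lncRNAs, 1 rose and 3 fell with vorinostat, and 2 rose and 1 fell with the combination. Among all tested genes, 26.2% rose and 25.9% fell with vorinostat, and 29.7% rose and 26.7% fell with the combination. TINCR, listed as PLAC2 and known from epidermal differentiation, rose from 1.3 and 1.1 CPM in vehicle to 10.95 and 10.98 CPM in combination (log2 3.19 ± 0.21, adjusted p = 1.5e-06 by edgeR). MIR22HG, listed as C17orf91, rose with the combination by 1.27. The largest decrease with vorinostat was that of MIR17HG, host of a microRNA cluster (log2 -1.86 ± 0.44, adjusted p = 0.0046 by edgeR). CYTOR, listed as NCRNA00152, fell with vorinostat (log2 -1.70 ± 0.23, adjusted p = 0.00020 by edgeR) and was higher in combination than in vorinostat alone (1.67 ± 0.24, adjusted p = 0.0012 by edgeR). CRNDE fell in both, by 1.07 and 1.51. RMRP and RPPH1, short structural RNAs, passed in no comparison.

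For each member called against vehicle, the gene with the most similar log2 CPM over the 8 libraries was sought among 9969 genes, as a description. It was C5orf27 for MALAT1 (Pearson r = 0.989), FBXL20 for NEAT1 (0.996), PPP1R3D for HOTAIR (0.986) and SERAC1 for SNHG1 (0.994). These points share 4 treatments and 8 libraries, so many genes that change with treatment can reach such values.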

How the data were processed

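The files hold raw read counts per gene symbol. The authors sequenced libraries as single-end reads of 50 bases, used TopHat2 for alignment to hg19 (2.0.8b, per the submitters' processing notes) and deposited HTSeq counts on NCBI RefSeq genes. The paper names an Illumina TruSeq RNA preparation and does not say how RNA was selected. How fully RNAs without a usual poly(A) tail, or short RNAs such as snoRNAs, were captured is therefore not known. The HTSeq version and strand setting are not given in the sources used here, so reads from TALAM1 opposite MALAT1, from GAS5-AS1 opposite GAS5, and from genes opposite TUG1 and PVT1 may not be separated from the member. The 5 HTSeq summary lines were left out of library sizes and tests.

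Genes were filtered by edgeR's filterByExpr (13694 of 23228 kept) and tested with edgeR 4.0.16 (R 4.3.3) by the quasi-likelihood test with TMM scaling (factors 0.9546 to 1.032), 1 mean per group over all 8 libraries, and Benjamini-Hochberg adjustment over all tested genes. A gene passed at an adjusted p under 0.01 and was called if its log2 fold change was also over 1 in size, thresholds taken from the study's methods, which used DESeq. The 95% intervals are the log2 fold change ± the t quantile times its SE. DESeq2 1.42.0, other scalings, filters, a replicate block and leaving out each library were alternatives. The fit was run on simulated counts of 13694 genes for vorinostat against vehicle. There the fit called 198 of the 200 genes given a change and 0 of the rest. That run changed far fewer genes than the 52.1% that passed with vorinostat in the data. All its genes shared 1 setting of the spread, every change given was over the fold threshold, and genes as low as HOTAIR were given none. It therefore does not show how genes with larger spread, smaller changes or low counts would fare. How often calls are wrong in the present libraries, with 2 per group, was not tested. Depth was 19069450 to 24759041 counts per library. Positions and lengths are from GENCODE on GRCh37. Older symbols were matched through RefSeq synonyms.

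The members and lists were chosen with earlier results of these data known. All members are named, and from each list those with the largest changes among genes that passed, beside further genes and with some omitted, a choice made after their values were seen. Genomic neighbors are given beside members. Some genes of the lists enter the counts and are not reported here by name.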

Additional observations from a re-analysis of the deposited data

How the results depend on the processing

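The number of called members with vorinostat against vehicle (2) was 4 with no fold threshold and 1 to 2 when 1 library was left out. With the combination against vorinostat it was 0, and 4 with no fold threshold. Members with an interaction were 0, and 0 to 1 when 1 library was left out, TUG1 without EC359 replicate 1 and NEAT1 without EC359 replicate 2. SNHG1 snoRNA rows that rose (8) ranged over 1 to 8 on leaving out a library, with vorinostat and with the combination, and paraspeckle genes that fell with the combination (6) over 3 to 8, counts added after seeing the data. Of 806 member values over the alternatives, 716 kept their direction and side of the threshold, 41 lost a pass, 29 gained one and 20 changed sign, none of them with a pass. For TUG1 with EC359 against vehicle (-0.01) the sign changed with DESeq2 (0.0044), RLE scaling (0.0044), no filter (0.012) and only the groups compared (0.014), and ranged from -0.22 to 0.19 on leaving out a library. Leaving out a library also changed the sign of MALAT1 with EC359 (-0.64 to 0.18), of SNHG5 with EC359 (-0.33 to 0.59), in the interaction (-0.47 to 0.45), against EC359 (-0.059 to 0.86) and against vorinostat (-0.089 to 0.23), and of the HOTAIR interaction (-0.45 to 0.81); the cause was not tested. The changes of MALAT1 and NEAT1 against vehicle with vorinostat and with the combination, and of SNHG1 with the combination, passed in all 17 alternatives. Under the replicate block, counts of called members were 0, 2, 4, 0 and 3, with 0 interactions, and 48 of 48 member values kept their side of the threshold. Deviations of same-numbered libraries correlated at -0.17 to 0.23, so the numbers were not shown to pair the libraries. Crossing the combination numbers, chosen after seeing the data, left these counts of called members at 0, 2, 4, 0 and 3, with 2 member values gaining a pass at an adjusted p under 0.01. Having 2 libraries per group limits every test, and counts under about 30 limit HOTAIR and the snoRNA rows.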
